A study of Arabidopsis thaliana with 20 samples.

Results

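The auxin receptor genes *TIR1* (AT3G62980), *AFB1* (AT4G03190), *AFB2* (AT3G26810) and *AFB3* (AT1G12820) were followed in a count table of 21 and 22 nt small RNAs from *Arabidopsis* flower buds. They were chosen by gene identifier as the *TIR1/AFB* genes targeted by miR393 and make up 4 of the 27415 genes in the table. The related auxin receptor genes *AFB4* and *AFB5* and the jasmonate receptor gene *COI1* encode F-box proteins of the same family, are not among the 4 and serve only for comparison. No gene of the 4 was called as raised or lower in *cer7*, *rst1* or *ripr* against the wild type. *AFB2* had fewer small RNAs, by levels scaled for depth, in all *cer7* and all *ripr* libraries than in any wild-type library. The same held for 13.7% of all tested genes in *cer7* and 8.26% in *ripr*. *AFB1* had more in most mutant libraries, against 9 counts in the wild type in all. The values of *AFB3* and *TIR1* overlapped with those of the wild type.

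The table holds 20 libraries of *Arabidopsis thaliana*. The *cer7* group had 5 libraries (3 of *cer7-gabi* and 2 of *cer7-sail*), *rst1* had 6 (3 each of *rst1-2* and *rst1-3*), *ripr* had 6 (3 each of *riprT* and *riprC*) and wild-type Col-0 (*col0*) had 3. *CER7* encodes RRP45B, a core subunit of the RNA exosome, and RST1 and RIPR are proteins that associate with the cytosolic exosome and the Ski complex. The study describes the *rst1* alleles and *cer7-3*, taken here to be *cer7-gabi*, as T-DNA insertions. It does not describe the kind of mutation under the name *cer7-sail*. The *ripr* alleles are CRISPR-Cas9 lines with 1 inserted base. Each mutant thus rests on a pair of alleles. All plants share the Col-0 background, which according to the study lacks a fully functional SOV/DIS3L2 exoribonuclease, and each sample pooled the buds of several plants. The study describes the libraries as biological replicates from separate dates and growth chambers. No mRNA level was measured in these libraries, so a lower small RNA count cannot be told apart from less transcript, and fewer cells of a type cannot be told apart from less RNA per cell.

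TIR1/AFB proteins are F-box subunits of SCF ubiquitin ligases. Auxin binds between the receptor and an Aux/IAA repressor, which is then marked for degradation, and the ARF transcription factors that the repressor held back become active. In *Arabidopsis*, miR393 guides the cleavage of these receptor mRNAs, and a cleaved mRNA can be copied into double-stranded RNA and diced into secondary small interfering RNAs (siRNAs). The cytosolic exosome degrades the upstream cleavage fragments of mRNAs from their 3′ end. Small RNAs that map to the receptor genes are therefore the readout in which siRNAs of miR393 targets would be counted.

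The mature miR393 is shown first, because the 4 genes share its target site. It has the same 22 nt from both of its loci, on chromosome 2 at chr2:16652111-16652132 (plus strand) and on chromosome 3 at chr3:20691657-20691678 (plus strand) of TAIR10.1. Capitals mark the seed, bases 2 to 8.
miR393a-5p and miR393b-5p: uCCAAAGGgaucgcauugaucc
The windows that pair with it are shown next, 5′ to 3′ on the mRNA strand, since they are the sites at which a miR393 target would be cut. Capitals mark bases that do not form a Watson-Crick pair with miR393.
TIR1: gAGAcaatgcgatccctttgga
AFB1: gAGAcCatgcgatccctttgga
AFB2: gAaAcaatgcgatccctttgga
AFB3: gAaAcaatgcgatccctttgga
bHLH77: ggGtcaGAgcgatccctttggC

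The sites of *AFB2* (chr3:9870237-9870258, plus strand) and *AFB3* (chr1:4369085-4369106, minus strand) were identical and had 2 mismatches. The site of *TIR1* (chr3:23273727-23273748, minus strand) had the same mismatches and a G:U wobble. The site of *AFB1* (chr4:1405341-1405362, minus strand) carried 1 mismatch more. Written as the base of the perfect complement, the position counted from the 5′ end of miR393 and the base of the site, G21A and T19A were present in all 4 genes, A20G (the wobble) in *TIR1* and *AFB1*, and A17C in *AFB1* alone among the 4. All 4 windows were complementary over the whole seed. Each lay wholly within the coding sequence and in the last exon, which is exon 4 of 4 in *AFB3* and exon 3 of 3 in the others.

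The windows were scored by counting 1 per mismatch and 0.5 per wobble, over the TAIR10.1 transcripts of 27438 genes. *AFB2* and *AFB3* scored 2 and were the only transcripts with a score of at most 2, *TIR1* scored 2.5 and *AFB1* 3.5. A single gene outside the family scored at most 3, the transcription factor gene *bHLH77* (AT3G23690, site at chr3:8530587-8530608, minus strand, in exon 1 of 7), which is known as another miR393 target and carries A20G and A16G as wobbles and T15A and A1C as mismatches. In total, 8 transcripts scored at most 4. The best windows of *AFB4*, *AFB5* and *COI1* scored 6.5, 7 and 7. A match of letters is a description and not a measured cleavage site. The count table gives 1 number per gene and no read positions, so counts near the site and elsewhere in the gene could not be separated.

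**Figure D1:**
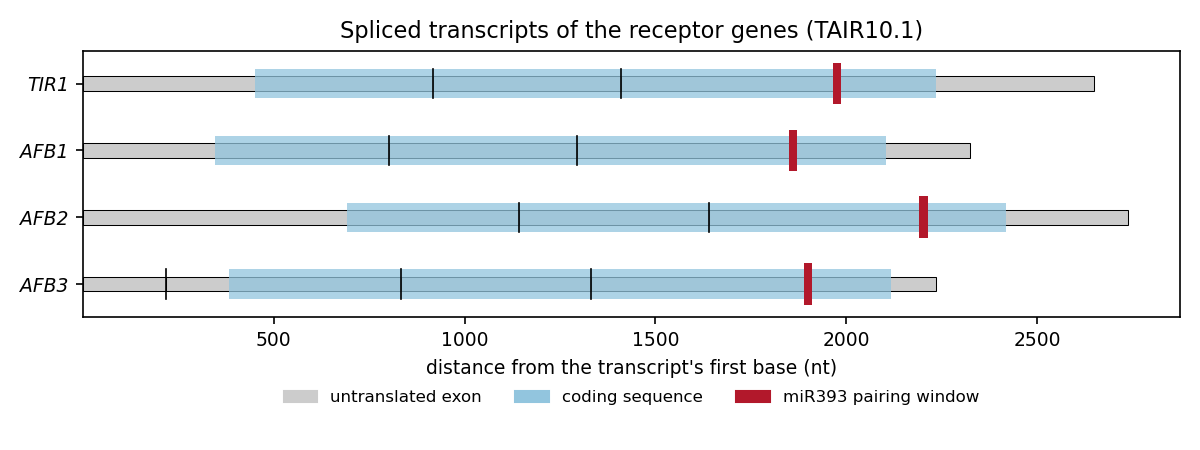
Spliced transcripts of *TIR1*, *AFB1*, *AFB2* and *AFB3* (rows), with the distance from the first base in nt on the x axis. Grey marks untranslated exon sequence, blue the coding sequence, black lines the exon borders and red the window that pairs with miR393, which begins at base 1965, 1849, 2191 and 1888 in that order, in the last exon each time.

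Most 21 nt stretches of each gene occur only once in the genome. Of the 21-mers within each gene, 0.649% in *TIR1*, 0.12% in *AFB1*, 1.51% in *AFB2* and 1.27% in *AFB3* occurred more than once in the genome. *AFB2* and *AFB3* were the closest pair, with 82.1% identity over their coding sequences and a longest identical stretch of 29 nt, against 69.9% for *TIR1* and *AFB1*. Repeated 21-mers that overlapped the miR393 window numbered 6 in *TIR1*, 9 in *AFB2*, 6 in *AFB3* and 0 in *AFB1*. Reads from those stretches cannot be placed on 1 gene, and the share of such reads is unknown because read positions are not given. *AFB1* also overlaps AT4G03180 by 51 nt and *AFB3* overlaps AT1G12810 by 63 nt, both on the opposite strand. These neighbours had at most 5 and 7 counts in any library. An annotated antisense non-coding RNA lies over part of *AFB1* (AT4G04455) and another over part of *AFB3* (AT1G04977), and because the use of the strand in counting is not given in the sources used here, reads from them cannot be told apart from reads of the receptor genes.

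Depth and labels were checked first. Totals per library ranged between 305475 and 522464 counts in *cer7*, 192747 and 296842 in *rst1*, 193616 and 371040 in *ripr*, and 203245 and 230727 in the wild type. These totals cover 21 and 22 nt reads on genes and not the whole libraries. Small RNA counts on the mutated genes themselves were at most 23 in any library and do not show their mRNA. *CER3*, a gene of wax synthesis, had 2458 to 12893 counts in *cer7*, 2181 to 3884 in *rst1* and 1196 to 5049 in *ripr*, against 23 to 29 in the wild type, so mutant and wild-type libraries separated according to their labels. The small RNA counts of 6 flower identity genes were low (0 to 40 per library) and, as small RNAs, are no measure of the tissue, so the label of flower buds could not be checked in this table.

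Levels are given as CPM, the count of a gene scaled to a common total of the counts on the 2916 genes that passed a filter on low counts, with the TMM method. All 4 receptor genes passed this filter. *AFB1* had 2, 2 and 5 counts in the wild-type libraries and passed only through mutant libraries. Its fold changes against the wild type were thus conditional on mutant values high enough to pass. Comparing genes needs a level per length, so CPM were divided by the transcript length in kb. In the wild type *AFB3* had 299 ± 97.7 CPM per kb, *AFB2* 131 ± 26.1, *TIR1* 28.8 ± 6.61 and *AFB1* 6.00 ± 3.02 (SD, n = 3). *AFB3* lay above *AFB2* and *AFB2* above *TIR1* in all 20 libraries, and *TIR1* lay above *AFB1* in 19 of 20. The exception was *rst1-3* replicate 2. By CPM in the wild type, *AFB3* ranked 177, *AFB2* 281, *TIR1* 1004 and *AFB1* 2532 among the 2916 genes.

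*AFB2* encodes a receptor whose function overlaps with that of TIR1. It had 239, 253 and 213 CPM in the *cer7-gabi* libraries, 149 and 179 CPM in *cer7-sail*, 343, 250.1 and 269 CPM in *rst1-2*, 226, 281 and 219 CPM in *rst1-3*, 201, 259 and 205 CPM in *riprT* and 190.1, 256 and 205 CPM in *riprC*, against 306, 440.1 and 331 CPM in the wild type. All 5 *cer7* libraries and all 6 *ripr* libraries were below the lowest wild-type library, and so were 5 of 6 *rst1* libraries. *rst1-2* replicate 1 lay within the wild-type range. Genes with every mutant library below every wild-type library made up 13.7% of all tested genes in *cer7*, 7% in *rst1* and 8.26% in *ripr*.

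On average *AFB2* had 206 ± 42.9 CPM in *cer7* (SD, n = 5), 265 ± 45.4 in *rst1* (n = 6) and 219 ± 30.0 in *ripr* (n = 6), against 359 ± 71.4 in the wild type (n = 3). For a call, an adjusted p-value under 0.01 and an absolute log2 fold change over 1 were required. The study applied the same cutoffs to raised loci, and here they were used in both directions. By edgeR's quasi-likelihood test, adjusted by the Benjamini-Hochberg method over all 2916 genes, the log2 fold change of *AFB2* in *cer7* was −0.79 (SE 0.203, 95% interval −1.20 to −0.37, adjusted p = 0.00291). In *ripr* it was −0.71 (SE 0.196, 95% interval −1.11 to −0.31, adjusted p = 0.00871). Both adjusted p-values were below 0.01 and both fold changes stayed within the fold threshold, so *AFB2* was not called. Each of the 20 libraries was then left out in turn, also those of groups not compared. The adjusted p-value stayed below 0.01 in 18 of 20 such fits for *cer7* and in 5 of 20 for *ripr*. In *rst1* the log2 fold change was −0.44 (SE 0.197, adjusted p = 0.113). An adjusted p-value below 0.01 with a lower level, at any fold, was found for 6.45% of all tested genes in *cer7*, 1.82% in *rst1* and 2.4% in *ripr*.

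*AFB2* had adjusted p-values that depended on the wild-type libraries, the scaling and the filter. Without *col0* replicate 2 the log2 fold changes were −0.63 in *cer7* (edgeR adjusted p = 0.0779) and −0.57 in *ripr* (adjusted p = 0.165). In *ripr* the adjusted p-value was also above 0.01 without *col0* replicate 1 (0.0161) and without *col0* replicate 3 (0.0106), and by DESeq2 (0.0103). With the replicate number as a block in the edgeR fit, the adjusted p-values were 0.0026 in *cer7* and 0.0051 in *ripr*. Replicate 2 was the highest *AFB2* library within *cer7-gabi*, *rst1-3*, *riprT*, *riprC* and *col0*, and the lowest within *rst1-2*. Leaving out *col0* replicate 2 alone kept the replicate 2 libraries of the mutants in the comparison. With TMM factors from genes called in no mutant, *AFB2* had −0.61 in *cer7* (adjusted p = 0.0242) and −0.60 in *ripr* (0.0336). The adjusted p-values in *cer7* and *ripr* were 0.122 and 0.337 with no filter, and 0.0146 and 0.0156 with a minimum mean of 10 counts. Scaling by library totals alone gave −1.09 in *cer7* (adjusted p = 5.1e-05), which passed both thresholds, and that scaling also set the median of all genes to −0.231 in *cer7*. The alleles were also compared one at a time with the wild type, a step chosen after the values were seen. *AFB2* then passed both thresholds in *cer7-sail* (log2 fold change −1.13, SE 0.257, edgeR adjusted p = 0.00123) and not in *cer7-gabi* (−0.61, SE 0.214, adjusted p = 0.0303). The difference between these alleles itself was 0.52 (SE 0.253, adjusted p = 0.333, *cer7-gabi* over *cer7-sail*).

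*AFB1* encodes the receptor best known for rapid auxin responses in roots, and was the member with the fewest small RNAs. It had 12, 13 and 3 counts in *cer7-gabi*, 9 and 6 in *cer7-sail*, 11, 6 and 11 in *rst1-2*, 7, 18 and 8 in *rst1-3*, 12, 19 and 11 in *riprT* and 6, 13 and 5 in *riprC*, against 2, 2 and 5 in the wild type. As CPM, 4 of 5 *cer7*, 5 of 6 *rst1* and 5 of 6 *ripr* libraries were above the highest wild-type library. The mean level was 27.5 ± 11.6 CPM in *cer7*, 42.3 ± 17.4 in *rst1* and 37.0 ± 13.3 in *ripr*, against 13.9 ± 7.02 in the wild type (SD, n = 5, 6, 6 and 3). The groups overlapped in each comparison.

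The log2 fold change of *AFB1* was 0.92 in *cer7* (SE 0.555, edgeR adjusted p = 0.196), 1.54 in *rst1* (SE 0.527, adjusted p = 0.0348) and 1.38 in *ripr* (SE 0.527, adjusted p = 0.0608). All missed the threshold of 0.01, and the 95% intervals were wide, from −0.21 to 2.05, from 0.46 to 2.61 and from 0.30 to 2.45. The wild type contributed 9 counts in all, and *AFB1* passed the filter only through mutant libraries, so these p-values are not free of that selection. From the summed counts alone, the ratio to the wild type was 1.90 in *cer7* (exact 95% Poisson interval 0.914 to 4.43), 2.94 in *rst1* (1.45 to 6.73) and 2.66 in *ripr* (1.32 to 6.08), intervals that cover counting error only. Without *col0* replicate 3, which held 5 of the 9 wild-type counts, the log2 fold changes were 1.32, 1.96 and 1.80 in *cer7*, *rst1* and *ripr*, and without *col0* replicate 2 they were 0.68, 1.28 and 1.14.

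*AFB3*, the closest relative of *AFB2*, gave the most small RNAs of the 4 genes. It had 434, 647 and 475 CPM in *cer7-gabi*, 491 and 370.1 in *cer7-sail*, 580.3, 648 and 632 in *rst1-2*, 328, 673 and 644 in *rst1-3*, 452, 589 and 558 in *riprT* and 362, 653 and 551 in *riprC*, against 572, 918 and 516 CPM in the wild type. The wild-type range was wide because of *col0* replicate 2. Of the mutant libraries, 4 of 5 *cer7*, 1 of 6 *rst1* and 2 of 6 *ripr* lay below it, and none lay above it. Replicate 2 was also the highest *AFB3* library within each of *cer7-gabi*, *rst1-2*, *rst1-3*, *riprT* and *riprC*, so it was not high in the wild type alone. The log2 fold change was −0.46 in *cer7* (SE 0.226, edgeR adjusted p = 0.106), −0.19 in *rst1* (SE 0.220, adjusted p = 0.573) and −0.34 in *ripr* (SE 0.219, adjusted p = 0.301). None of these adjusted p-values passed the threshold. Scaling by library totals alone gave *AFB3* −0.75 in *cer7* (adjusted p = 0.00599). Without *col0* replicate 2 it had −0.19 in *cer7* and −0.075 in *ripr*, and without *col0* replicate 3 −0.73 and −0.58.

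*TIR1*, the first receptor of the family to be described, had 80.5, 118 and 70.9 CPM in *cer7-gabi*, 72.4 and 63.8 in *cer7-sail*, 106, 95.1 and 78.5 in *rst1-2*, 42.6, 64.1 and 157 in *rst1-3*, 69.1, 68.4 and 66.5 in *riprT* and 53.8, 85.3 and 78.7 in *riprC*, against 71.4, 95.7 and 61.7 CPM in the wild type. The ranges overlapped in every comparison, and *rst1-3* held both the lowest and the highest library. The log2 fold change was 0.11 in *cer7* (95% interval −0.55 to 0.76), 0.23 in *rst1* (−0.42 to 0.87) and −0.12 in *ripr* (−0.77 to 0.53), with edgeR adjusted p-values of 0.815, 0.660 and 0.828. The intervals leave out a change of the size of the fold threshold in either direction.

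**Figure D2:**
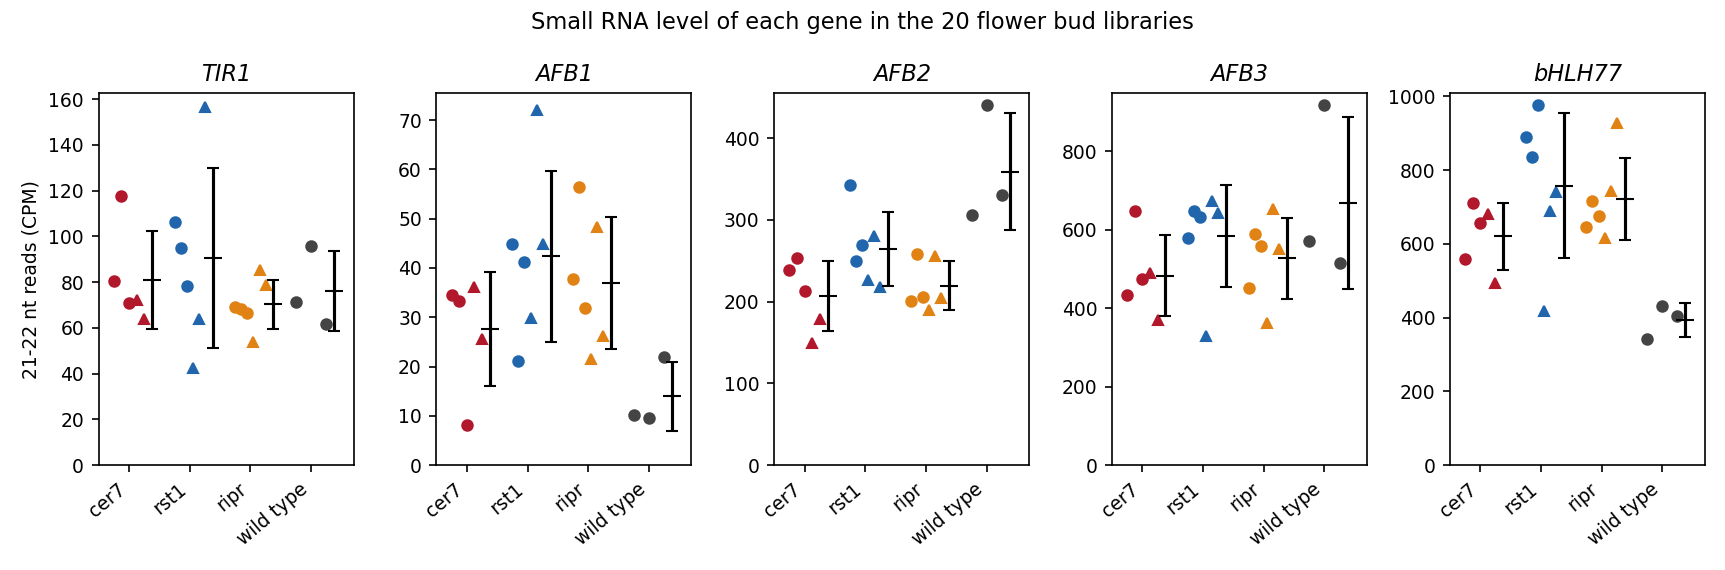
Small RNA level in CPM (y axis, from 0, own scale per panel) of the 4 receptor genes and *bHLH77* in each of the 20 libraries, grouped as *cer7*, *rst1*, *ripr* and wild type. Circles are *cer7-gabi*, *rst1-2*, *riprT* and *col0* libraries, triangles *cer7-sail*, *rst1-3* and *riprC*, and bars give mean ± SD. *AFB2* lies below all wild-type libraries in *cer7* and *ripr*, while *bHLH77* lies above them there. Of all tested genes, 13.7% in *cer7* and 8.26% in *ripr* lay below, and 22.6% and 16.2% above.

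Of the 4 genes, 0 were called in *cer7*, *rst1* or *ripr*, where the calls made up 19.8%, 10.6% and 10.6% of all tested genes. Most calls were of raised genes, 510 of 577 in *cer7*, 289 of 308 in *rst1* and 288 of 309 in *ripr*. Raised genes were 88.4% of the calls in *cer7*, and 61.1% (411 raised, 262 lower) when libraries were scaled by their totals alone. At an unadjusted p below 0.05, *AFB2* and *AFB3* passed in *cer7*, *AFB1* and *AFB2* in *rst1*, and *AFB1* and *AFB2* in *ripr*. Of all tested genes, 45.9% passed it in *cer7*, 33.2% in *rst1* and 32.3% in *ripr*. DESeq2 also called 0 of the 4 in each comparison. The median log2 fold change of the members was −0.178 in *cer7*, 0.0171 in *rst1* and −0.232 in *ripr*, beside medians of all genes of 0.0677, 0.086 and 0.0691. These comparisons share the same wild-type libraries.

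The mutants were also compared with each other. Again 0 of the 4 genes were called, where calls made up 2.33% of all tested genes for *cer7* against *rst1*, 2.88% for *cer7* against *ripr* and 0.48% for *rst1* against *ripr*. *AFB2* for *cer7* over *rst1* came closest to a call by its adjusted p-value (log2 fold change −0.35, SE 0.172, 95% interval −0.70 to 0.00, edgeR adjusted p = 0.263). Scaling by library totals alone set it to −0.67 (adjusted p = 0.00487), within the fold threshold. *AFB1* differed by −0.62 for *cer7* over *rst1* (SE 0.362, adjusted p = 0.364) and by 0.16 for *rst1* over *ripr* (SE 0.334, adjusted p = 0.988). Between alleles of 1 gene, 0 of the 4 were called as well, beside 0.343% of all tested genes for *cer7*, 0.206% for *rst1* and 0% for *ripr*, where 69 genes had an unadjusted p below 0.05. A shared level in the mutants is not shown by these p-values. The 95% intervals for *AFB2* still allowed log2 differences between −0.43 and 0.27 for *cer7* over *ripr*.

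**Figure D3:**
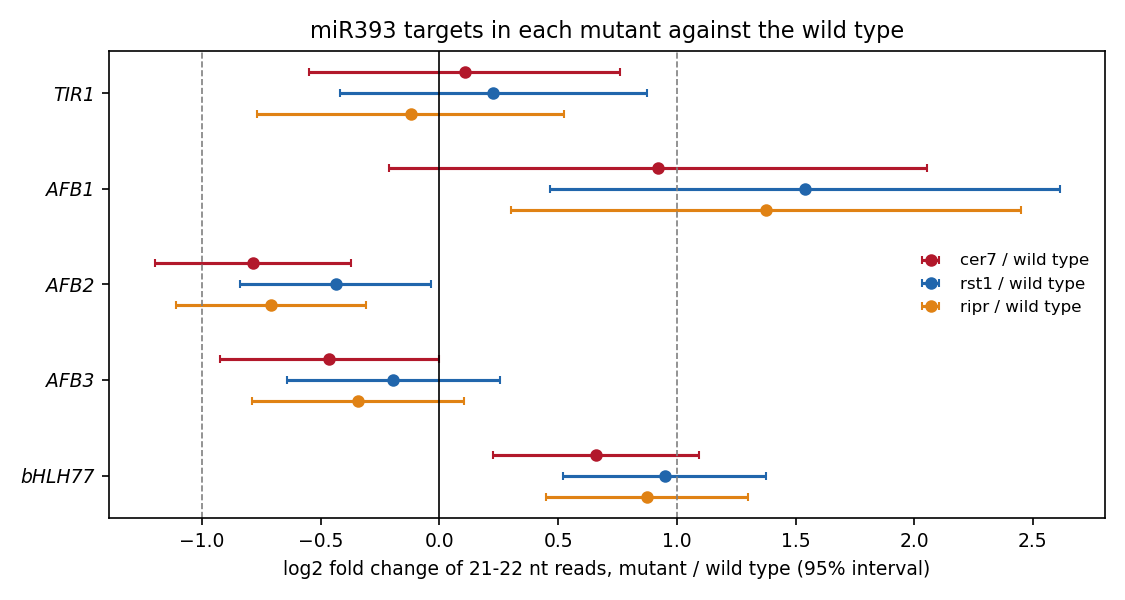
Log2 fold change of 21 and 22 nt reads, mutant over wild type (x axis, edgeR, bars 95% intervals), for the receptor genes and *bHLH77*. Dashed lines mark the fold threshold of 1 in either direction. *AFB2* lies to the left of 0 in all 3 mutants (−0.79, −0.44 and −0.71), *AFB1* and *bHLH77* to the right.

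The composition of the family's reads was described next. The 4 genes together had 798 ± 153 CPM in *cer7*, 982 ± 176 in *rst1* and 854 ± 148 in *ripr*, against 1118 ± 300.1 in the wild type (SD, n = 5, 6, 6 and 3). As a mean over libraries, *AFB3* made up 60.4% of these counts in *cer7*, 59.1% in *rst1* and 61.5% in *ripr*, against 59.3% in the wild type. *AFB2* made up 26.0%, 27.5% and 25.9% in *cer7*, *rst1* and *ripr*, against 32.5% in the wild type, and *AFB1* 3.49%, 4.31% and 4.26%, against 1.36%. *TIR1* held 10.2% of the summed counts in *cer7*, 8.93% in *rst1* and 8.14% in *ripr*, against 6.81% in the wild type. Shares do not depend on the scaling between libraries.

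The share of *AFB2* reached 19.9 to 30.3% in *cer7* libraries and 23.8 to 30.3% in *ripr* libraries, against 30.1 to 35.5% in the wild type, so the ranges met. The share of *TIR1* lay between 9.25 and 11.2% in *cer7*, above all wild-type libraries (6.54 to 7.45%), and between 5.88 and 14.7% in *rst1*. The level of *TIR1* in *cer7* overlapped with the wild type (log2 fold change 0.11, edgeR adjusted p = 0.815). A share also depends on the counts of the other members, and no share over all genes can be set beside it. A library held 147 to 411 counts of the family, and a single share was correspondingly imprecise. In *col0* replicate 1, for example, *AFB2* was 60 of 188 counts (31.9%, Clopper-Pearson 95% interval 25.3 to 39.1%, counting error only). The shares were not tested.

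**Figure D4:**
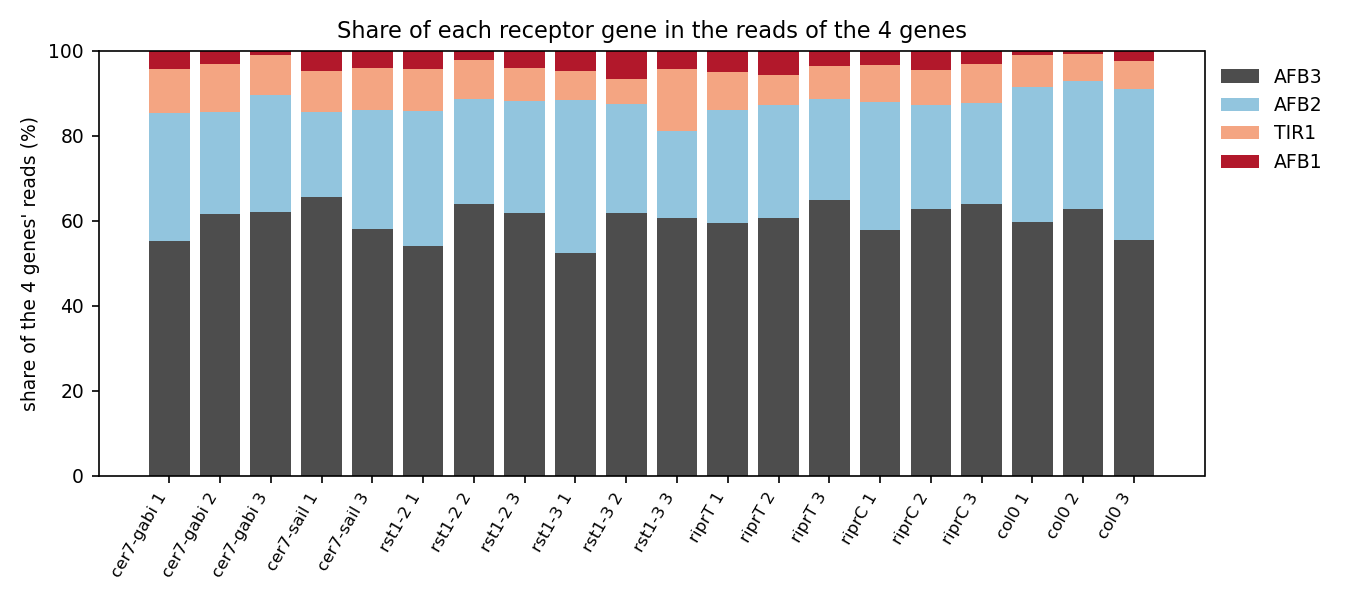
Share of *AFB3*, *AFB2*, *TIR1* and *AFB1* in the counts of the 4 genes (y axis, %, stacked to 100) in each library, with *cer7*, *rst1*, *ripr* and wild-type libraries from left to right. *AFB3* holds 52.4 to 65.6% of the counts in every library, and the *AFB1* segment is smallest in *col0* replicate 2 (0.654%).

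The other miR393 target had higher values in the mutants, where *AFB2* had lower ones. *bHLH77* encodes a basic helix-loop-helix transcription factor. It had 558, 711 and 657 CPM in *cer7-gabi*, 680.0 and 494 in *cer7-sail*, 891, 835 and 976 in *rst1-2*, 418, 689 and 739 in *rst1-3*, 647, 717 and 676 in *riprT* and 617, 742 and 928 in *riprC*, against 342, 431 and 405 CPM in the wild type. All *cer7* and *ripr* libraries and 5 of 6 *rst1* libraries were above the wild type, the exception being *rst1-3* replicate 1. Genes with every mutant library above every wild-type library made up 22.6% of all tested genes in *cer7*, 15.8% in *rst1* and 16.2% in *ripr*.

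Its log2 fold change was 0.66 in *cer7* (SE 0.212, edgeR adjusted p = 0.0149), 0.95 in *rst1* (SE 0.209, adjusted p = 0.00128) and 0.87 in *ripr* (SE 0.208, adjusted p = 0.00262). It was not called, because the adjusted p-value in *cer7* and the fold in all 3 missed their thresholds. A higher level with an adjusted p-value below 0.01, at any fold, was found for 17.7% of all tested genes in *cer7*, 10% in *rst1* and 10% in *ripr*. It passed both thresholds in *rst1* with TMM factors from genes called in no mutant (1.04, adjusted p = 0.000527), without *rst1-3* replicate 1 (1.07, adjusted p = 5.7e-05) and in *rst1-2* alone against the wild type (1.20, adjusted p = 0.000103). For each CPM of the 4 receptor genes together, *bHLH77* had 0.785 ± 0.098 in *cer7*, 0.767 ± 0.123 in *rst1* and 0.858 ± 0.146 in *ripr*, against 0.362 ± 0.0711 in the wild type (SD, n = 5, 6, 6 and 3), with ranges of 0.676 to 0.909, 0.632 to 0.956 and 0.712 to 1.08, against 0.294 to 0.436. This ratio divides a gene with higher means in the mutants by a family total with lower means there. No share over other pairs of genes can be set beside it, and the ratio was not tested. The difference in direction between *bHLH77* and *AFB2* was not tested either. *AFB1* had higher means in the mutants, as *bHLH77* had.

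The relatives without a close miR393 match had hardly any small RNAs and did not pass the filter. *AFB4* had 1 to 3 counts in *cer7*, 0 to 3 in *rst1* and 0 to 6 in *ripr*, against 0 in each wild-type library, and a count of 0 allows up to 3 counts, or 13.2 to 15.3 CPM. *AFB5*, which like *AFB4* encodes a receptor known for its response to the auxin picloram, had 1 to 7 counts in *cer7*, 1 to 5 in *rst1* and 1 to 2 in *ripr*, against 2 to 3 in the wild type. *COI1* had 1 to 6, 1 to 6 and 1 to 4 counts in *cer7*, *rst1* and *ripr*, against 1 to 4 in the wild type. All 5 *cer7* libraries had *AFB4* counts, but they were deeper (305475 to 522464 counts in total) than the wild type (203245 to 230727). How many other genes below the filter had the same pattern was not counted. The summed counts of *AFB4* were 9, 7 and 18 in *cer7*, *rst1* and *ripr*, against 0 in the wild type (5, 6, 6 and 3 libraries). AT4G24380 overlaps *AFB4* by 644 nt on the opposite strand, and reads from it cannot be told apart. *AFB4*, *AFB5* and *COI1* were not tested.

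Downstream of the receptors, the small RNAs of several *ARF* genes did differ between mutants and wild type. Of 23 *ARF* genes, 17 passed the filter, and 7 were called as raised and 0 as lower in each mutant. Of all tested genes, 17.5% were raised and 2.3% lower in *cer7*, 9.91% and 0.652% in *rst1*, and 9.88% and 0.72% in *ripr*. The count of *ARF* genes raised in all 3 mutants was 7. The share of all tested genes raised in all 3 was not counted. The comparisons share the same wild-type libraries, so the 3 sets of calls are not independent. The largest change was that of *ARF10*, a miR160 target, with log2 fold changes of 4.73 in *cer7* (SE 0.270, edgeR adjusted p = 5.7e-15), 6.04 in *rst1* (SE 0.276, adjusted p = 1.9e-17) and 5.98 in *ripr* (SE 0.276, adjusted p = 2.5e-17). *ARF10* had 231 to 295 counts in *cer7*, 315 to 812 in *rst1* and 409 to 834 in *ripr*, against 5 to 9 in the wild type. Like *AFB1*, *ARF10* passed the filter only through mutant libraries, so its p-values are not free of that selection. The other called *ARF* genes were not checked for this, so the count of calls may carry the same limit.

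*ARF16* and *ARF17*, which are also miR160 targets, had log2 fold changes of 2.35 and 2.85 in *cer7*, 3.05 and 3.54 in *rst1*, and 3.08 and 3.64 in *ripr*. The miR167 targets *ARF6* and *ARF8* had 2.48 and 1.56 in *cer7*, 2.97 and 1.98 in *rst1*, and 3.07 and 2.12 in *ripr*. *ARF3*, a target of *TAS3* small RNAs, had 1.24, 1.91 and 1.74 in *cer7*, *rst1* and *ripr*, and *ARF7*, an activator of lateral root formation, had 2.71, 2.34 and 2.38. The calls of *ARF3* in *cer7* and of *ARF7* were the least stable. *ARF3* in *cer7* had 1.09 (adjusted p = 0.037) without *col0* replicate 1, 1.37 (0.0197) without *col0* replicate 2 and 1.14 (0.0345) without *col0* replicate 3. It also missed the threshold without *cer7-gabi* replicate 2 (1.13, adjusted p = 0.0129) and without *cer7-sail* replicate 3 (1.15, adjusted p = 0.0123). It was not called either by library totals alone (0.93, adjusted p = 0.0209), with no filter (1.29, adjusted p = 0.0185) or when only *cer7* and the wild type were fitted (1.19, adjusted p = 0.0131). *ARF7* lost its call in *rst1* (1.73, adjusted p = 0.0421) and in *ripr* (1.80, adjusted p = 0.03) without *col0* replicate 2, and in *rst1* with no filter (2.31, adjusted p = 0.0124). With no filter, 6 *ARF* genes were called as raised in *cer7* and *rst1* each, and 7 in *ripr*. The 10 tested *ARF* genes that were not called included *ARF2*, *ARF4*, *ARF12*, *ARF14* and *ARF20*. *ARF2* had log2 fold changes of 0.90 in *cer7* (edgeR adjusted p = 0.00575), 0.74 in *rst1* (0.0303) and 0.77 in *ripr* (0.023). *ARF4* had −0.34 (0.181), 0.020 (0.959) and −0.0037 (0.993) in *cer7*, *rst1* and *ripr*. *ARF12*, *ARF14* and *ARF20* are members of a cluster of near-identical genes whose counts are uncertain for that reason. *ARF14* had log2 fold changes of −0.69 in *cer7* (adjusted p = 0.0075), −0.84 in *rst1* (0.00235) and −0.35 in *ripr* (0.218). *ARF20* had −0.67 (0.00257), −0.56 (0.0136) and −0.47 (0.0392) in *cer7*, *rst1* and *ripr*.

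The other parts of the pathway gave few small RNAs. Of 29 *Aux/IAA* repressor genes, 4 passed the filter and 1 was called, *IAA18*, as raised in *cer7* (log2 fold change 1.92, SE 0.520, edgeR adjusted p = 0.00425), beside 1.47 in *rst1* (adjusted p = 0.0481) and 1.54 in *ripr* (adjusted p = 0.0347). *IAA18* lost its call in *cer7* without *col0* replicate 2 (1.34, adjusted p = 0.0652), without *col0* replicate 3 (1.98, adjusted p = 0.0201), without *cer7-gabi* replicate 2 (1.75, adjusted p = 0.0132) and without *cer7-sail* replicate 3 (1.80, adjusted p = 0.0109). Of 9 genes for SCF subunits and their regulators 2 passed the filter, and of 5 *TOPLESS* corepressor genes 2, with 0 called in any mutant. None of 6 auxin synthesis genes and none of 7 *GH3* genes, which encode enzymes that conjugate auxin to amino acids, passed the filter. The median log2 fold change of the tested *ARF* genes was −0.312 in *cer7*, 0.0197 in *rst1* and −0.00373 in *ripr*, that of the *Aux/IAA* genes 1.19, 0.91 and 1.21.

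**Figure D5:**
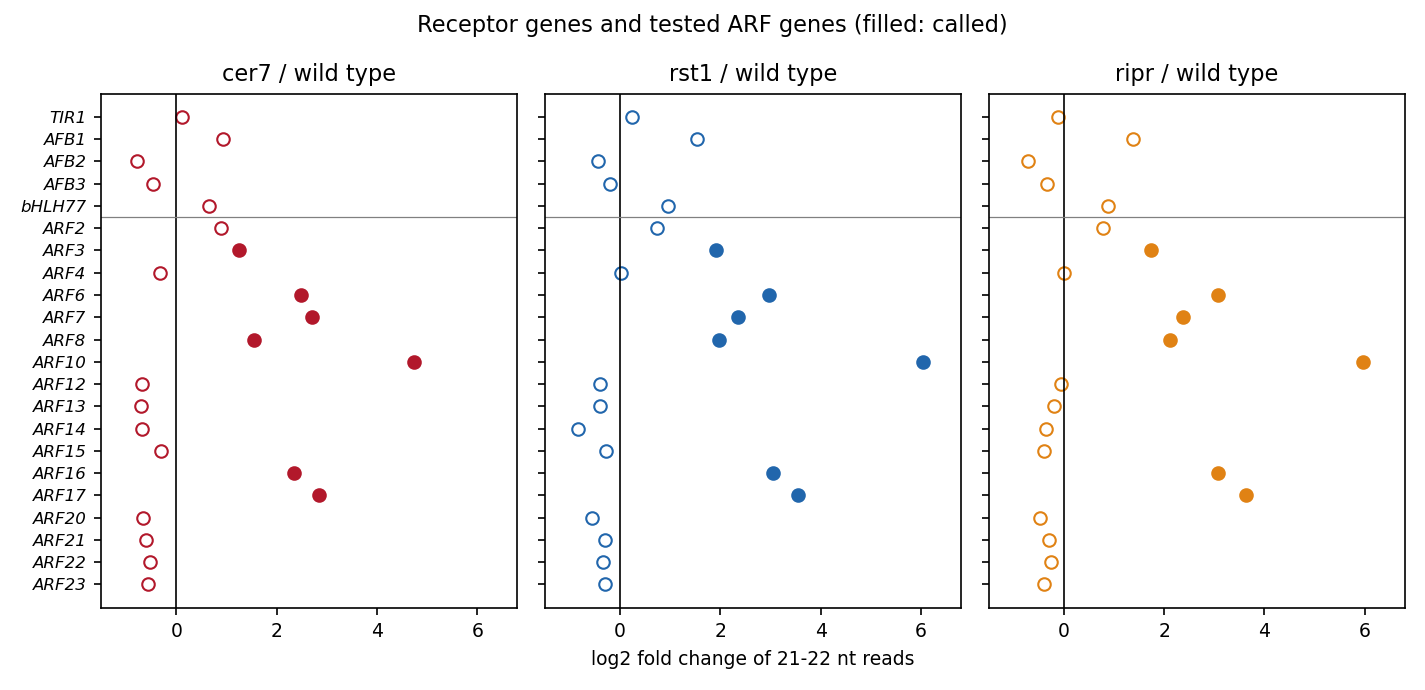
Log2 fold change, mutant over wild type (x axis), of the receptor genes, *bHLH77* and the 17 tested *ARF* genes (rows), in 1 panel per mutant. Filled circles were called and open circles were not. All filled circles belong to the 7 *ARF* genes, with *ARF10* at 4.73, 6.04 and 5.98 in *cer7*, *rst1* and *ripr*, while the receptor genes lie between −0.79 and 1.54.

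Across the 20 libraries the log2 CPM of *AFB3* moved with those of *TIR1* (Pearson r 0.654, Spearman rho 0.611) and *AFB2* (r 0.631, rho 0.629), while *AFB1* had r between −0.164 and 0.114 with the other three. These are descriptions over libraries that share groups and depth, and *AFB1* counts are low. Over all tested genes, the 3 with the highest Pearson r to *AFB2* were AT2G15930 (0.822), AT4G04957 (0.806) and *GH9C3* (0.802), a glycosyl hydrolase gene. For *AFB3* they were the iron transporter gene *IRT1* (0.799), *PIRL2* (0.798) and AT1G12290 (0.751). For *TIR1* they were AT2G10557 (0.740), *AFB3* and AT5G43730 (0.575). For *AFB1* they were AT2G16580 (0.720), AT5G65520 (0.719) and the disease resistance gene *RPP13* (0.691).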

How the data were processed

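Small RNAs of 20 flower bud libraries were analysed. The authors trimmed the reads with cutadapt (version 1.18), aligned them without mismatches to TAIR10 with ShortStack in unique mode, and deposited raw counts of 21 and 22 nt reads per gene, without normalization or pooling. The counting tool and the use of the strand are not given in the sources used here. No column was left out. Of the 27415 identifiers, 26718 matched a TAIR10.1 (RefSeq) gene, from which sequences and coordinates were read. The table itself holds no coordinates.

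The labels' *cer7-gabi* and *cer7-sail* were analysed together as *cer7*, and likewise the alleles of *rst1* and *ripr*, as in the study. Counts were fitted with edgeR 4.0.16 under R 4.3.3: filterByExpr (minimum count 10, minimum total 15), TMM, robust glmQLFit with 4 groups (7 for the alleles) and glmQLFTest, with p-values adjusted over 2916 genes. The procedure was tested on simulated data. Other scalings, filters, thresholds, DESeq2 (version 1.42.0), a replicate block, 2-group fits and the removal of each library were tried. Likeness was Pearson's r of log2 CPM (prior count 2). No replicate pair of an allele agreed within sampling noise (19 pairs, chi-square divided by its degrees of freedom 3.79 to 11.8), and p-values measure the spread between these libraries.

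Members and lists were chosen with earlier results of these data known. Named were the 4 members, *AFB4*, *AFB5*, *COI1*, *bHLH77*, called genes of the auxin lists (up to 10) and the 3 genes most like each member. *ARF2*, *ARF4*, *ARF12*, *ARF14* and *ARF20* were added after their values were seen.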

Additional observations from a re-analysis of the deposited data

Results flagged for a closer look

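In a search for libraries far from the rest of their group, 15 groups were examined, 5 genes (the receptors and *bHLH77*) in each of the 3 mutants. Of these, 1 stood out. *AFB3* in *rst1-3* replicate 1 had 328.4 CPM, and the next lowest *rst1* library had 580.3 CPM, a gap of 0.731 of the group's range and beyond Dixon's 95% critical value for 6 libraries. Chance alone gives about 1 such group in 20. The same library was also the lowest of the *rst1* group for *TIR1* (42.6 CPM) and *bHLH77* (418 CPM), and the cause was not tested. Without it, *AFB3* stayed uncalled in *rst1*. Replicate 1 was also the lowest *AFB3* library in *cer7-gabi*, *rst1-2*, *riprT* and *riprC*, and not in *cer7-sail* or *col0*.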

How the results depend on the processing

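No alternative moved *AFB1* or *TIR1* to another side of the thresholds in *cer7* or *ripr*, nor *AFB3* or *AFB2* in *rst1*. Scaling by library totals alone turned *TIR1* in *cer7* against the wild type to −0.19, set *AFB2* there to −1.09 and so gave 1 called member. It turned *TIR1* for *cer7* over *ripr* to −0.084, and *AFB2* and *AFB3* for *riprT* over *riprC* to −0.027 and −0.026. With no filter on low counts, *AFB1* for *cer7-gabi* over *cer7-sail* became 0.16 and *TIR1* for *riprT* over *riprC* 0.098, and the *Aux/IAA* gene raised in *cer7* was no longer called. With a minimum mean of 10 counts, *AFB2* for *cer7* over *ripr* became 0.014, and *AFB1* did not pass, nor did it pass the filter of the fits that held only *cer7* or only *ripr* with the wild type. At an adjusted p below 0.05, 1 member was called, *AFB1* in *rst1* (1.54). In *cer7-sail* alone, *TIR1* was −0.16 and *AFB2* −1.13. Leaving out each library in turn, *TIR1* ranged from −0.14 to 0.28 in *cer7* and from −0.34 to 0.044 in *ripr*, *AFB3* from −0.44 to 0.063 in *rst1*, *TIR1* from −0.30 to 0.045 for *cer7* over *rst1*, *AFB2* from −0.17 to 0.098 for *cer7* over *ripr*, and *AFB1* from −0.068 to 0.33 for *rst1* over *ripr*. In *cer7* against the wild type, the count of lower genes over the whole table was 67, and 262 with totals alone, 23 with TMM factors from genes called in no mutant, 37 with no filter and 29 with a minimum mean of 10 counts, and the 510 raised genes became 336 when only *cer7* and the wild type were fitted. TMM factors from uncalled genes moved the median of all genes to 0.233, 0.175 and 0.174 in *cer7*, *rst1* and *ripr*. Among 138 such counts of calls, 108 stayed within 1.5 times the main value. When libraries were left out, 0 members were called against the wild type. The cause of these changes was not tested. The labels do not pair the replicate numbers: 14 of 57 same-numbered pairs of libraries had correlated deviations over 0.1, and 15 of 20 libraries correlated best with their own number. A replicate block left 0 members called, with *AFB2* at −0.75 in *cer7* and −0.71 in *ripr*. Depth limits *AFB1* most, with 9 wild-type counts.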
